A study of Mus musculus with 2 samples.

Results

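The genes described here are 10 protein-coding genes that surround Tgfbr2 and Eomes on distal mouse chromosome 9: Fbxl2, Osbpl10, Stt3b, Azi2, Cmc1, Golga4, Ctdspl, Vill, Plcd1 and Exog. They were found by symbol, and all 10 were among the 22609 genes listed in both libraries. Of these, 8 reached 1 CPM (the count divided by the scaled library size, times 1000000) in either library, as did 11735 genes in all. Osbpl10 and Ctdspl did not reach that level. Total RNA had been taken from CD8+ regulatory T cells, which FACS had isolated from the spleens of naive animals 3 months old. One library came from wild-type mice (WT) and 1 from mice of the genotype Tgfbr2-/-Eomes-/- (called DKO here). Not given in the labels are how many mice were pooled, the sort markers, the strain, and whether the deletions were made in all cells or through a Cre line.

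Tgfbr2 encodes the receptor chain that binds TGF-beta, and Eomes encodes eomesodermin, a T-box factor that guides cytotoxic and memory fates of lymphocytes. Genes close to a targeted allele are inherited together with it, and they keep the sequence of the strain in which the allele was made unless recombination separates them. A deletion can also touch control elements that neighbouring genes share. The neighbours are therefore described in their order along the chromosome. Counts per gene carry no information on alleles, so strain of origin was not tested.

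The WT library held 22307065 gene counts and the DKO library 19661212. Since each genotype had a single library, ratios have no replicate check, and no p-value was computed. Each interval below is an exact 95% interval of a ratio that covers counting error only, so it compares these 2 libraries and not the genotypes. In bulk RNA, fewer cells of a type and less RNA per cell cannot be told apart. The 7 markers of the sorted cells (Cd8a, Cd8b1, Cd3e, Cd3d, Cd3g, Il2rb and Ikzf2) summed to 7211 CPM in WT and 6470 CPM in DKO, and none of them differed by 2-fold. Markers of other cells were higher in the DKO library: 6 myeloid markers summed to 1187 and 3241 CPM with 5 at least 2-fold higher, 5 dendritic cell markers to 67.0 and 165 CPM with 4 higher, and 4 CD4+ T cell markers to 90.0 and 202 CPM with 3 higher. The 4 NK cell markers summed to 305 and 388 CPM, and the 3 measured were split. Ncr1 was 2.59-fold higher and Klrb1c 1.72-fold higher, but Klre1 was 1.61-fold lower. The 5 B cell markers summed to 47.3 and 64.9 CPM with 1 at least 2-fold higher. The 2 listed plasma cell markers summed to 91.9 and 114 CPM with 0 past 2-fold. Most of this was Xbp1, at 87.9 and 110 CPM, while Sdc1 was at 4.06 and 3.90 CPM. Of the 4 listed erythroid cell and platelet markers, summing to 10.5 and 18.5 CPM, Hba-a1 and Hbb-b1 were at 0 in both libraries and 1 of the 2 measured was higher. Alignments that were not unique are outside the gene counts, so 0 counts do not show that these globins were absent. Beta-s, a beta-globin gene not among these markers, was at 23.2 CPM in WT and lower in DKO (log2 ratio -0.775). The part of all these other cells in any ratio below was not tested.

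The order of the genes, taken from RefSeq on GRCm38, was Fbxl2, Osbpl10, Stt3b, Tgfbr2, Azi2, Cmc1, Eomes, Golga4, Ctdspl, Vill, Plcd1 and Exog. Azi2 and Cmc1 thus lie between the 2 targeted genes and were the only measured genes there. Stt3b was the next measured gene on the outer side of Tgfbr2, and Golga4 the next on the outer side of Eomes. Plcd1 and Vill follow each other on opposite strands. Counted in measured genes, Fbxl2 lay 11 steps before Tgfbr2, and Exog lay 9 steps after Eomes.

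Promoter sequences were found in the RefSeq table for 8 of the 10 genes (9 promoters, since Plcd1 has 2 annotated starts), and Golga4 and Osbpl10 had no entry. The 250 bases before the start are shown for the measured neighbours with the most different levels in each direction, Plcd1 and Fbxl2, because counts of a whole gene do not show which start was in use. They read 5′ to 3′ on the gene's own strand, which is the minus strand for both genes, and capitals mark CG dinucleotides. The build is GRCm38.p6, with the upstream Plcd1 promoter at chr9:119093503-119093752, the downstream one at chr9:119088262-119088511 and the Fbxl2 promoter at chr9:114026752-114027001.
Plcd1, upstream start: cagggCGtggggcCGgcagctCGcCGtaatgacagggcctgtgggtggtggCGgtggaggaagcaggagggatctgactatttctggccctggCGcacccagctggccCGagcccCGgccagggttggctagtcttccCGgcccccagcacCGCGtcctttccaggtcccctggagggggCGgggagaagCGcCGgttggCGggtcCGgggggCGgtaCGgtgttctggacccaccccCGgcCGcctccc
Plcd1, downstream start: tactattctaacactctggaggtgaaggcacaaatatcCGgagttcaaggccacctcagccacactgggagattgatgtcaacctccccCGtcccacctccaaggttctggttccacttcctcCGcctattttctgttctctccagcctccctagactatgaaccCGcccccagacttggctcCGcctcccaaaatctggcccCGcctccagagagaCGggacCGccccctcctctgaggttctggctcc
Fbxl2: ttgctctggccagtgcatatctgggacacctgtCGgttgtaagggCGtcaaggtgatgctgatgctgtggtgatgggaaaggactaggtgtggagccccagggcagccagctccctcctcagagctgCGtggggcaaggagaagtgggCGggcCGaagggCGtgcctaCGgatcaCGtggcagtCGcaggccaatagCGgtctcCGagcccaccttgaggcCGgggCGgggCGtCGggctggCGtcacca
The upstream Plcd1 start had 20 CG dinucleotides in these 250 bases and the downstream start 8, against a median of 6 over 32851 promoters in the table. Fbxl2 had 16, a number that 25.4% of the promoters reached. In the full windows of 300 bases (250 before to 50 after the start), 3 motifs were searched on both strands: the T-box half-site GGTGTGA, the Smad-binding letters CAGACA and the palindromic Smad-binding element GTCTAGAC. None of the 9 promoters of the neighbours held any of them, while 3.98%, 21% and 0.213% of all promoters did. This says only that those letters are not in these windows.

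The targeted genes were checked first. For Eomes, 10292 WT counts stood against 3589 DKO counts, that is 469 against 180 CPM, a level 2.61-fold lower in DKO (interval 2.52 to 2.72). For Tgfbr2, the counts were 7825 and 4882, that is 357 and 244 CPM, a level 1.46-fold lower (1.41 to 1.51). Both ratios were in the direction of the genotype label. Transcripts of both were still counted, and counts over a whole gene do not show whether the deleted part was present.

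The genes closest to Tgfbr2 had nearly the same level in both libraries. Stt3b, a catalytic subunit of the oligosaccharyltransferase that attaches N-linked glycans to proteins in the endoplasmic reticulum, had 2861 counts in WT and 2681 in DKO, or 130 and 134 CPM, a ratio of 1.03 (0.975 to 1.08). Azi2, also known as NAP1, an adaptor that links innate immune sensors to the kinase TBK1, had 3156 and 2898 counts, or 144 and 145 CPM, a ratio of 1.01 (0.958 to 1.06). Cmc1, a mitochondrial protein needed for assembly of cytochrome c oxidase, had 658 and 585 counts, or 30.0 and 29.3 CPM, a ratio of 0.975 (0.871 to 1.09). All 3 intervals include 1, and their widest bounds put a difference of more than 1.15-fold in either direction outside the counting error. The log2 ratio of Cmc1, -0.04, became 0.01 when the libraries were scaled by total counts. Gpd1l, the second measured gene before Tgfbr2, was at 178 and 181 CPM, with a ratio of 1.02 (0.973 to 1.07). From Cmc1 to Eomes, the next measured gene, the ratio thus went from near 1 to 2.61-fold lower, as the plot of ratio by gene order shows.

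**Figure D1:**
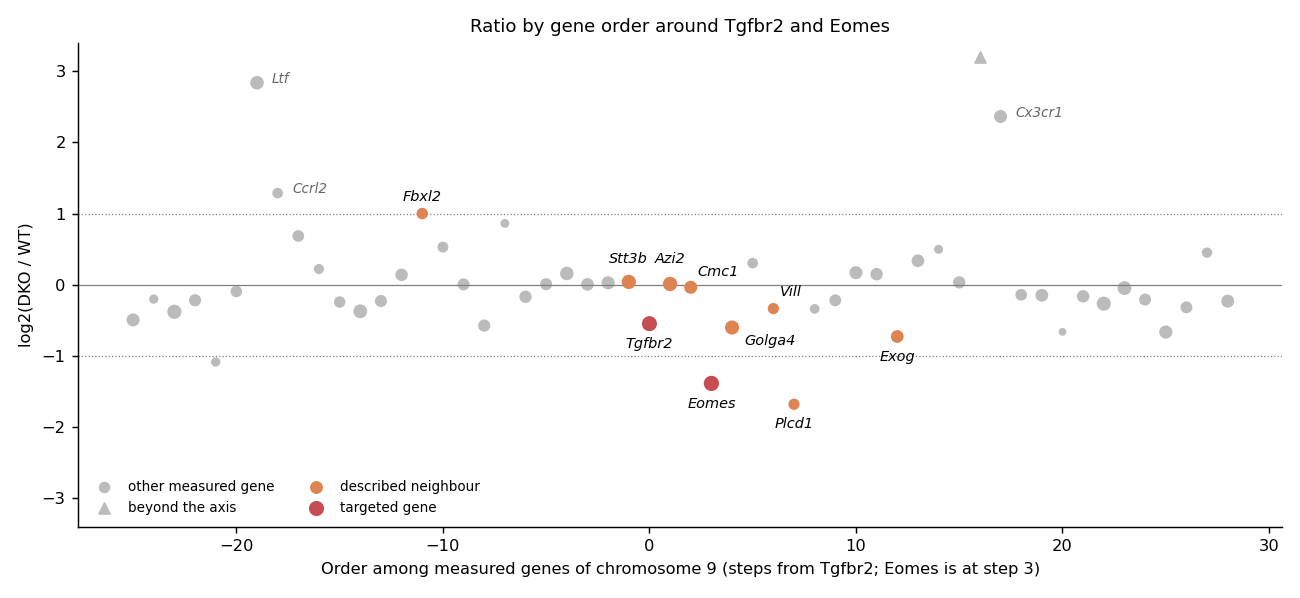
Log2 ratio of DKO over WT (prior count 0.5) against order among measured genes of chromosome 9, in steps from Tgfbr2; point area grows with CPM, orange points are the neighbours described here, red points the targeted genes, and dotted lines mark 2-fold. Stt3b, Azi2 and Cmc1 lie near 0 beside both targets, Golga4, Vill, Plcd1 and Exog lie below 0 after Eomes, and the triangle at the upper edge is Xirp1, which had 0 counts in WT and lies beyond the axis.

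The 4 measured neighbours on the outer side of Eomes were all at lower levels in the DKO library, by unequal amounts. Golga4, a golgin that tethers transport vesicles to the trans-Golgi, had 2247 counts in WT and 1350 in DKO. This was 102 and 67.5 CPM, and 1.52-fold lower (1.42 to 1.62). It is the measured gene next to Eomes, and of the 2627 genes at 100 CPM or more in the higher library, 3.65% were at least 1.5-fold lower. Exog, a nuclease of the inner mitochondrial membrane, had 469 and 258 counts, which is 21.4 and 12.9 CPM and 1.66-fold lower (1.42 to 1.94). Of the 4928 genes between 20 and 100 CPM, 5.19% were at least 1.5-fold lower. Golga4 and Exog each lay just above the lower edge of their range of CPM. In the range below that of Exog, 5 to 20 CPM, 11.8% of 2398 genes were at least 1.5-fold lower. The intervals of Golga4 and Exog overlap each other and do not reach 1.

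Plcd1 and Vill were both expressed at low levels. Plcd1, the delta-type phospholipase C that cleaves phosphatidylinositol bisphosphate into second messengers, had 96 counts in WT and 27 in DKO, or 4.38 and 1.35 CPM. It was 3.24-fold lower (2.10 to 5.17) and was the only neighbour at least 2-fold lower. Vill, a villin-like actin-binding protein, had 97 and 70 counts, which is 4.42 and 3.5 CPM and 1.26-fold lower, with an interval that includes 1 (0.919 to 1.74). Plcd1 and Vill thus had almost the same count in the WT library and unlike counts in the DKO library, without scaling for exon length. Among the 1782 genes at 1 to 5 CPM, 15.8% were at least 2-fold lower, the direction of Plcd1, and 35.6% passed 2-fold upwards.

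The measured genes that lie among these 4 had log2 ratios of both signs. Between Eomes and Exog there were 5 other measured genes: Itga9, Acaa1b, Oxsr1, Myd88 and Acaa1a. Itga9, an integrin alpha chain and the second measured gene after Eomes, had 247 and 278 counts, or 11.3 and 13.9 CPM, with a ratio of 1.23 (1.04 to 1.47). Of the 5, 3 had a log2 ratio above 0 and 2 below, with a median of 0.15 and none past 2-fold. With the 4 neighbours added, 6 of 9 lay below 0 and the median was -0.34. Of all 11735 measured genes, 5849 lay below 0. Oxsr1, a stress-response kinase, had a ratio of 0.859 with an interval that leaves out 1 (0.780 to 0.946), and Acaa1b, a peroxisomal thiolase, had 0.790 (0.600 to 1.04). Vill, Plcd1, Acaa1b and Oxsr1 thus follow each other with log2 ratios below 0. Myd88, the adaptor of Toll-like receptors, at 1.12 (1.07 to 1.19), and Acaa1a, at 1.11 (1.03 to 1.19), then lie between them and Exog.

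Fbxl2, the outermost gene on the other side, was higher in the DKO library. It encodes an F-box protein with leucine-rich repeats, a substrate receptor of SCF ubiquitin ligases. It had 59 counts in WT and 108 in DKO, or 2.69 and 5.40 CPM, and was 2.01-fold higher (1.45 to 2.81), just past the limit. Among the 2398 genes at 5 to 20 CPM, 18.8% were at least 2-fold higher. Fbxl2 lay just above the lower edge of that range, and of the 1782 genes at 1 to 5 CPM, 35.6% were at least 2-fold higher. GENCODE places 496 exon bases of Fbxl2, 11.2% of its exon length, over exons of Ubp1 on the opposite strand, and Ubp1 had 1631 and 1637 counts. The strand setting of the counting is not given, so reads in the shared bases cannot be assigned to either gene with certainty. None of the other 9 neighbours shared exon bases with another listed gene in that annotation.

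Osbpl10 and Ctdspl were at or near 0. Osbpl10, a lipid transfer protein of the oxysterol-binding protein family, had 0 counts in both libraries. A count of 0 allows up to 3 counts, or 0.137 CPM in WT and 0.150 CPM in DKO. Ctdspl, a small phosphatase that acts on the tail of RNA polymerase II, had 0 counts in WT and 18 in DKO, or 0.90 CPM. Its ratio against a floor of 3 counts in the WT library was 6.58 with the DKO count taken as exact, and the exact interval, which carries the error of both counts, starts at 4.82. Its level in DKO remained below the 1 CPM minimum, so it is not among the 8 measured genes. Ctdspl lies between Golga4 and Vill, on the same side of Eomes as the genes at lower levels.

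**Figure D2:**
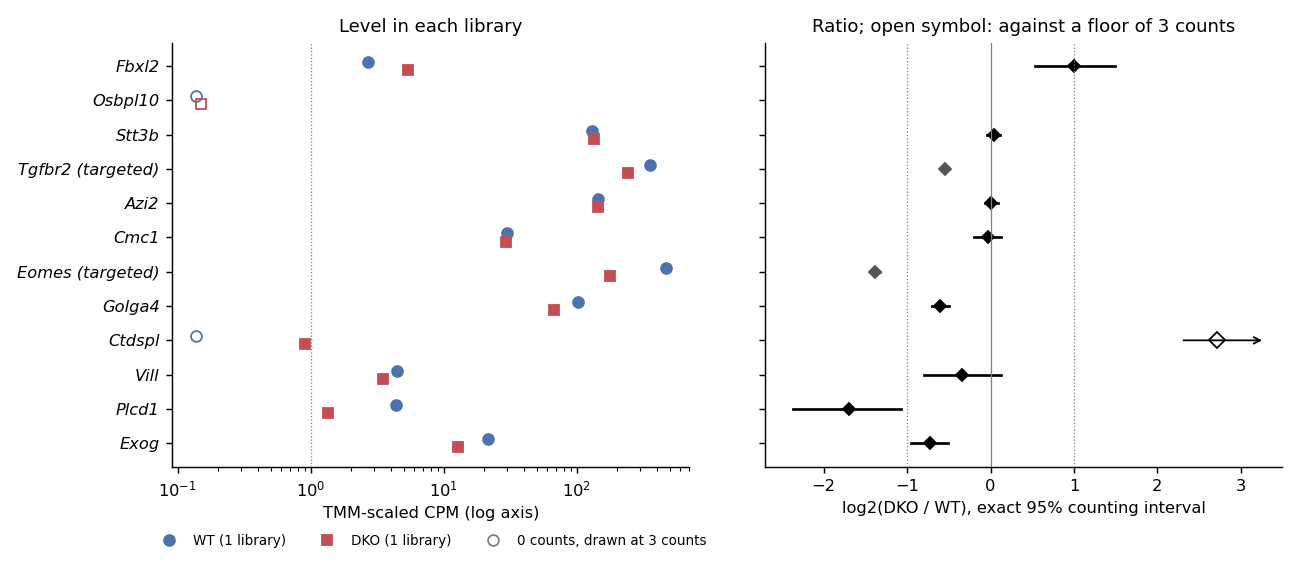
Left, TMM-scaled CPM in each library on a log axis, with genes in chromosome order, blue circles for WT, red squares for DKO and open symbols for 0 counts drawn at 3 counts; right, log2 of the ratio of CPM with its exact 95% counting interval, dotted lines at 2-fold. Golga4, Plcd1 and Exog lie below 0 with intervals that leave it out, Fbxl2 lies at 2.01-fold, and the open diamond of Ctdspl is a ratio against the floor with no upper bound.

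Levels were compared between genes as CPM per kilobase of exon, with exon lengths from GENCODE on GRCm38 and exact Poisson intervals. In the WT library Stt3b was the highest of the neighbours at 30.9 CPM per kilobase (29.8 to 32.1), followed by Cmc1 at 25.7 (23.7 to 27.7) and Azi2 at 22.3 (21.6 to 23.1). Golga4 was at 7.53, Exog at 3.28, Plcd1 at 1.42, Vill at 1.00 and Fbxl2 at 0.605 CPM per kilobase. Neighbours in this order were separate beyond counting error except Plcd1 and Vill, and except Osbpl10 and Ctdspl, both at 0. In the DKO library the order of the first 5 was the same, but the intervals of Cmc1 at 25 and Azi2 at 22.5 CPM per kilobase overlapped. Fbxl2 at 1.22 CPM per kilobase was then sixth, above Vill at 0.794 and Plcd1 at 0.437. The intervals of Fbxl2 and Vill just overlapped, as did those of Vill and Plcd1. Eomes was at 113 CPM per kilobase in WT and 43.2 in DKO, and Tgfbr2 at 43.6 and 29.8. The intervals of Tgfbr2 and Stt3b overlapped in the DKO library.

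Of the 8 measured neighbours, 1 passed 2-fold upwards in DKO and 1 downwards, or 2 in all. Of all 11735 measured genes, 11.7% passed it upwards and 3.67% downwards, or 15.4% in all. The remaining 6 met neither limit. Taken at 1.5-fold, 1 was higher and 3 were lower (Golga4, Plcd1 and Exog), against 18.2% and 8.72% of all measured genes, or 26.9% in both directions. The median log2 ratio of the 8 was -0.18, and that of all measured genes 0.00. These counts describe genes that were chosen with results of these libraries known, so the shares are given without a reading.

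**Figure D3:**
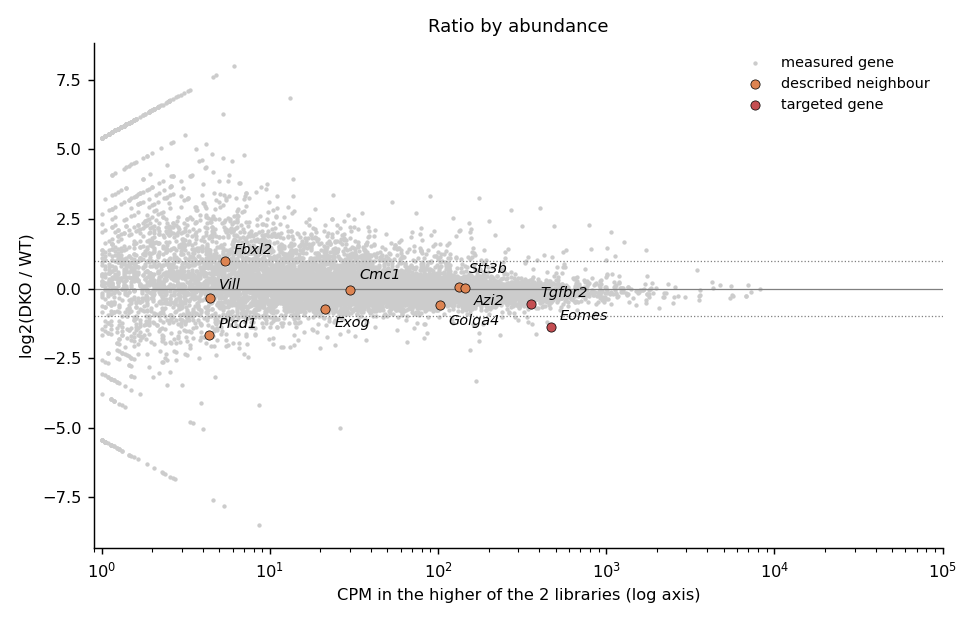
Log2 ratio of DKO over WT (prior count 0.5) against CPM in the higher library on a log axis, for the 11735 genes with at least 1 CPM; the streaks at the left are genes with 0 or few counts in 1 library, whose ratio the prior count limits. Plcd1, Vill and Fbxl2 lie at the left, where ratios of all genes spread widely, and Golga4, Stt3b and Azi2 at about 100 CPM or more, where few genes pass 2-fold (dotted lines).

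All measured genes in the stretch from Fbxl2 to Exog were then counted, with the targets left out. Of these 22 genes, 1 was at least 2-fold higher and 1 lower, and they were Fbxl2 and Plcd1. The 14 that are not described above as neighbours included 0 past 2-fold, with a median log2 ratio of 0.02 and a range from -0.57 to 0.86. The 11 genes before Tgfbr2 had a median of 0.03, and the 9 after Eomes had a median of -0.34. With the described neighbours left out, the medians were 0.01 for 9 genes before Tgfbr2 and 0.15 for 5 after Eomes. The neighbours left out after Eomes include Plcd1, Exog and Golga4, which had the lowest ratios there, so a higher median without them had to follow. The neighbours were chosen with results of these libraries known, and the part of position was not tested.

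Over a wider stretch, the share of genes past 2-fold did not run in a single direction with distance from the targets. Within 20 measured genes of either target there were 42 genes, of which 5 (11.9%) were at least 2-fold higher and 1 (2.38%) lower, with a median log2 ratio of 0.01. Among the 22 nearest, at 1 to 10 steps, 0 were higher and 1 was lower. Among the 20 at 11 to 20 steps, 5 were higher and 0 lower. The 40 genes at 21 to 40 steps included 5 higher and 2 lower, and the 561 genes farther away 64 (11.4%) higher and 18 (3.21%) lower. The median size of the log2 ratio, without its sign, was 0.19 at 1 to 10 steps, 0.25 at 11 to 20, 0.39 at 21 to 40 and 0.31 beyond, against 0.30 over all measured genes. These groups also differed in abundance, with a median CPM in the higher library of 55.8, 45.6, 36.2 and 35.8 in the same order. The part of abundance was not tested.

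The 5 higher genes within 20 steps were Fbxl2 and 4 others, named after their values were seen. Ltf, the iron-binding lactoferrin of neutrophil granules, went from 828 counts in WT to 5396 in DKO, 7.15-fold higher (6.64 to 7.70), in a library where the myeloid markers were also higher. Ccrl2, an atypical chemokine receptor, was 2.45-fold higher (1.97 to 3.05), from 5.56 to 13.6 CPM. Cx3cr1, the fractalkine receptor of circulating effector T cells and of myeloid cells, went from 650 to 3050 counts, 5.15-fold higher (4.73 to 5.61). Xirp1 had 0 and 25 counts, a ratio of 9.14 against the floor of 3 counts with the DKO count taken as exact, and its exact interval starts at 6.90. All 4 were between 13 and 19 steps from the nearer target.

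Chromosome 9 as a whole stood in the middle of the chromosomes. Of its 645 measured genes, targets included, 74 (11.5%) were at least 2-fold higher and 22 (3.41%) lower. On the other chromosomes, 1288 of 11004 genes (11.7%) were higher and 402 (3.65%) lower. Among 20 chromosomes with at least 100 measured genes, chromosome 9 ranked 14th by the share past 2-fold, at 14.9%, where the range was from 12.5% on chromosome 18 to 17.7% on chromosome X. Across adjacent measured genes, the Spearman correlation of the log2 ratio was 0.06 on chromosome 9, 8th of the 20, with the others between -0.04 and 0.15. These correlations are across genes of 2 shared libraries and are given as a description.

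**Figure D4:**
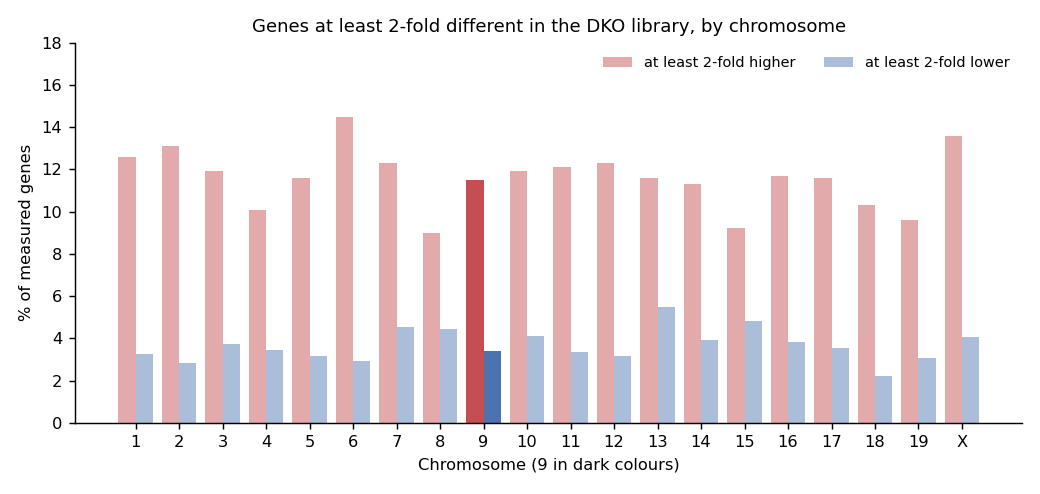
Percentage of measured genes at least 2-fold higher (red) and at least 2-fold lower (blue) in the DKO library on each chromosome, with chromosome 9 in dark colours and both bars starting at 0. Chromosome 9, at 11.5% higher and 3.41% lower, lies within the range of the other chromosomes.

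Genes of the same family or complex as each neighbour, nearly all on other chromosomes, were placed beside them. Of 11 measured oligosaccharyltransferase genes, Stt3b included, 0 passed 2-fold and the median log2 ratio was 0.04. The partners with the largest differences were Krtcap2 at 128 and 105 CPM (log2 ratio -0.29) and Rpn1 at 287 and 235 CPM (-0.29). Of 10 measured cytochrome c oxidase assembly genes with Cmc1, 0 passed 2-fold and the median was -0.04, with Sco2, a copper chaperone of the enzyme, the farthest from 0 at 10.4 and 6.55 CPM (-0.67).

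The TBK1 adaptors and kinases included genes past 2-fold. Of the 7 on that list, all measured, 2 passed 2-fold upwards and 0 downwards, where 11.7% and 3.67% of all measured genes did, with a median log2 ratio of 0.22. Tbkbp1, another TBK1-binding adaptor of the same kind as Azi2, went from 339 to 675 counts and from 15.5 to 33.8 CPM, 2.19-fold higher (1.91 to 2.5). The other was Optn, an autophagy receptor and TBK1 partner, named after its value was seen, with only 4 and 35 counts and 1.75 CPM in DKO, in the range of 1 to 5 CPM where 35.6% of genes passed 2-fold upwards. Traf3, an adaptor upstream of TBK1, was at 131 and 85.5 CPM (log2 ratio -0.62).

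Golga4 stood lower than the other golgins and Golgi stacking proteins in its list. Of 12 measured genes 0 passed 2-fold, with a median log2 ratio of -0.09. Among those with at least 5 CPM in either library, the next largest difference was that of Golga3, at 73.1 and 55.8 CPM (-0.39). Golga5 was at 53.7 and 65.0 CPM (0.28). The highest log2 ratio in the list, 0.50, was that of a gene below 5 CPM. The difference between Golga4 and these genes has no replicate and was not tested. Among 10 measured mitochondrial and DNA repair nucleases and maintenance factors with Exog, 1 was at least 2-fold higher and 0 lower. Of all measured genes, 11.7% were higher and 3.67% lower. The median log2 ratio of the 10 was -0.01. The higher gene was Dna2, a nuclease and helicase of DNA replication, at 5.38 and 14.1 CPM and 2.62-fold higher (2.11 to 3.28), and Ssbp1, the mitochondrial single-strand binding protein, was at 18.5 and 11.9 CPM (-0.63).

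In the families of Plcd1 and Fbxl2, 1 gene passed 2-fold in each direction. Of all measured genes, 11.7% passed it upwards and 3.67% downwards. Of 9 measured phospholipase C genes, 1 was at least 2-fold lower, Plcd1 itself, and 1 higher, Plcl1, a catalytically inactive relative that was named after its counts of 20 and 48 were seen. The median log2 ratio was 0.07. Plcg2, the gamma-type enzyme of B cells and myeloid cells, had 835 and 1382 counts, 38.1 and 69.1 CPM, and was 1.82-fold higher (1.67 to 1.98), beside the higher B cell and myeloid markers given above. Plcb3 was at 18.1 and 12.3 CPM (-0.56). Of 17 measured FBXL genes, 1 was at least 2-fold higher, Fbxl2 itself, and 1 lower, with a median of -0.05. The lower gene was Fbxl16, named after its counts of 28 and 0 were seen. Plcl1 (2.4 CPM in DKO) and Fbxl16 (1.28 CPM in WT) lay at 1 to 5 CPM. In that range, 35.6% of genes passed 2-fold upwards and 15.8% downwards. Kdm2b, a histone demethylase of the FBXL family, was at 24.1 and 39.1 CPM (0.69), and Fbxl12 at 49.8 and 34.7 CPM (-0.52).

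In the villin and gelsolin family, 1 of 6 measured genes was at least 2-fold higher and 0 lower, against 11.7% and 3.67% of all measured genes. The median log2 ratio of the family was 0.12. The higher gene was Gsn, which encodes the actin-severing protein gelsolin, at 43.9 and 97.7 CPM and 2.23-fold higher (2.06 to 2.41). The 8 measured relatives of Ctdspl among phosphatases of the RNA polymerase II tail had 0 past 2-fold and a median of 0.26, with Rpap2 at 20.9 and 28.7 CPM (0.46). The 8 measured relatives of Osbpl10 also had 0 past 2-fold, with a median of 0.06. Osbpl9, at 105 and 141 CPM (0.42), and Osbpl11, at 68.1 and 53.2 CPM (-0.36), had the largest differences among them.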

How the data were processed

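What the authors deposited for both libraries are raw read counts by gene, in whole numbers. Per the labels' protocols, an Illumina TruSeq total RNA kit and single-end sequencing were used. The tools in the submitters' processing notes are bcl2fastq, TopHat2 2.0.8b and HTSeq, and the build is mm9, with no role or order. For annotation and strand setting, the answer is not given in the sources used here. The 5 closing rows that name no gene stayed out of library sizes; non-unique alignments were 66.4% (WT) and 64.8% (DKO) of each file's total.

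Counts were scaled by TMM factors (edgeR 4.0.16 in R 4.3.3; 0.983 for WT, 1.02 for DKO). Ratios are of CPM, log2 ratios use a prior count of 0.5, and intervals are exact Clopper-Pearson 95% intervals of the DKO share of a gene's counts (scipy 1.17.1). They and the floor of 3 counts cover counting error only. Reads that carry no molecular identifier may also be copies of the same molecule, which the intervals do not take into account. Genes reaching 1 CPM in either library count as measured. "At least 2-fold" limits the ratio and is no test, since 1 library per genotype leaves no model of variation to fit.

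Chromosome and order came from RefSeq (GRCm38.p6) by symbol for 20043 genes and by a synonym for 2279, which covered 99.3% of measured genes. It is not the build of the files, so coordinates are given only for the promoters printed. Named genes were the targets, the 10 neighbours, the first 2 measured genes on each side of each target, genes past 2-fold between the outermost neighbours, and up to 3 per family list with at least 5 CPM and the largest log2 ratio in size. The neighbours and lists were chosen with earlier results of these data known. The ratio and call were tested on simulated data for the same DKO to WT comparison (11460 measured genes, counting error only), which recovered 96% of genes set at 2.5-fold and 96% at 4-fold. Alternatives were scaling by total counts or DESeq2 1.42.0 size factors, other minimums, limits and prior count, and windows of 10 and 40 genes.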

Additional observations from a re-analysis of the deposited data

How the results depend on the processing

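Every called neighbour kept its direction under each scaling. Over the scalings and a prior count of 5, log2 ratios of Golga4 and Exog stayed between -0.60 and -0.55, and -0.73 and -0.68. That of Plcd1 stayed between -1.68 and -1.63 under the scalings and was -1.54 with the prior count of 5. Scaling by total counts moved the median of all measured genes from 0.00 to 0.05. With a prior count of 5, the log2 ratio of Ctdspl went from 5.28 to 2.26 and that of Fbxl2 from 1.00 to 0.95, under 2-fold on that scale. Without a filter on low counts, 2 neighbours were at least 2-fold higher (Ctdspl was added), the window of 20 genes held 8 higher and 3 lower genes, 5 family genes were lower in place of 2, and the share past 2-fold was 20.9% on chromosome 9 and 20.2% elsewhere, the reverse of the order at 1 CPM (14.9% and 15.4%). With at least 5 CPM required, 0 neighbours were lower (Plcd1 fell below the minimum), the window held 0 lower genes, 0 family genes were lower, and the share past 2-fold was 8% on chromosome 9 and 8.98% elsewhere. With a limit of 1.5-fold, 3 neighbours and 4 genes of the window were lower, and the shares were 24.8% and 27.0%. A window of 10 genes held 0 higher genes, and one of 40 held 10 higher and 3 lower. No paired analysis was possible because each genotype had 1 library, and for the same reason no library could be left out. Depth limits Plcd1, Vill, Fbxl2 and Ctdspl, each at or under 108 counts per library.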
